A study of Mus musculus with 22 samples.

Results

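Cd14, the receptor genes Tlr4, Ly96, Tlr2, Tlr3 and Tlr9, the adaptor Myd88 and the inflammasome sensor Nlrp3 were followed in mouse adipocyte chromatin, 8 of the 21911 protein-coding genes that had a promoter window. They were chosen by name, and Cd14 and Tlr9 were included because their promoter signal was lower in short-term obesity. The values that chose these 2 genes are described below without a test. The surroundings of the 8 genes held 28 of the 104657 regions that the peaks of all libraries merge into.

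The assay was ATAC-seq, which finds open DNA by the cuts of a transposase that carries sequencing adaptors. The male mice of all 8 groups carried AdipoERCre, a tamoxifen-inducible Cre recombinase driven by the adiponectin promoter, and the NuTRAP reporter, which puts biotin on the nuclei of cells in which Cre has acted. All animals received tamoxifen before the diets began, and labelled nuclei were pulled from frozen epididymal fat, 1 animal per library. Group C (n = 3, 18 weeks old) had stayed on low-fat chow, and H (n = 3, same age) had eaten high-fat diet for 12 weeks. In HC (n = 3, 26 weeks old) the 12 weeks of high-fat feeding were followed by 8 weeks on chow, and CC_s (n = 3, same age) was its lean control. HH (n = 3, 31 weeks old) had high-fat feeding for 25 weeks, beside CC_l (n = 2, same age) on low-fat chow. HHC (n = 3, 39 weeks old) returned to chow for 8 weeks after those 25, beside CCC (n = 2, same age). Each p-value below measures the spread between single animals. In the last 8 weeks of HC, CC_s, HHC and CCC the chow was another product, in controls as well. The long-diet mice were older than the short-diet mice, so that duration and age cannot be told apart. The labels also give the short and the long libraries different code prefixes, whose meaning is not stated.

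Toll-like receptors recognise molecules of microbes and of damaged cells. Cd14 binds bacterial lipopolysaccharide and hands it to Tlr4 and its partner Ly96 (MD-2) at the cell surface, Tlr2 binds bacterial lipoproteins, and Tlr3 and Tlr9 read double-stranded RNA and unmethylated DNA in endosomes. Most of these receptors signal through the adaptor Myd88 to NF-kappaB, while Tlr3 uses Ticam1. Nlrp3 assembles the inflammasome, which matures interleukin-1 beta. In fat tissue these genes are best known from macrophages, and adipocytes carry part of the pathway, Tlr4 among it.

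The libraries held between 40528 and 60523 peaks. Peak contrast, the median maximum signal of a library's peaks over that of its weakest peak, ranged from 2.25 to 8.92. The H libraries (4.7 to 6.4) all lay beneath the C libraries (6.82 to 8.92). HC replicate 3 (2.43) and HHC replicate 3 (2.25) were the lowest of the 22. The part of this measure in the results below was not tested. Of 16 adipocyte marker genes, 14 had promoter signal in all 22 libraries. Of 16 macrophage markers, 3 had signal in all 22 and 9 in 2 or fewer, and Itgam, Cd163 and C1qb had none in any library. The summed promoter signal of the macrophage list, on the rank-mapped log2 scale, was 18.67 to 19.87 in C, 18.61 to 19.51 in H, 19.21 to 19.49 in CC_s, 18.64 to 19.98 in HC, 18.66 to 19.05 in CC_l, 19.01 to 19.27 in HH, 19.49 to 19.77 in CCC and 19.52 to 20.22 in HHC. HC replicate 3, with 11 of the 16 markers above the floor, and HHC replicate 3, with 9, had the most, while their mean adipocyte marker signal, 18.87 and 18.26, was the lowest. HH replicate 1 had 10 of 10 endothelial markers above the floor, against 1 in each of the other HH libraries. HHC replicate 3 had 6 of these, and HC replicate 3 and CCC replicate 2 had 4. Of 10 progenitor and stromal markers, HH replicate 1 had 9, HHC replicate 3 had 8, and HC replicate 3 and HHC replicate 1 had 7. Of 8 mesothelial markers, 5 of the 6 obese libraries had none above the floor, and every other library had 1 or more. The part of these markers in the results was not tested.

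Promoter sequences place the signal. They come from the RefSeq table of GRCm38 and were read for 5 of the 8 genes (Tlr2, Tlr3, Tlr9, Myd88 and Nlrp3). The 250 bases before the RefSeq start are shown for Tlr9, Tlr2 and Myd88. The windows of these 3 genes are reached by peaks of a neighbour or of an upstream element. The RefSeq start of Tlr9 is the GENCODE start used for the window, that of Myd88 lies 23 bp downstream of it, and that of Tlr2 lies 159 bp downstream, so that most of the Tlr2 stretch is inside the GENCODE gene. Capitals mark matches on either strand to GAGGAA (the ETS core bound by PU.1), TGANTCA (AP-1), GGGCGG (a GC box) and the core of an interferon-stimulated response element, GAAA and GAAA with 2 bases between. Of 32851 promoters of this length, 23.3% hold GAGGAA, 6.75% TGANTCA, 32.7% GGGCGG and 2.98% the interferon element core, so that a match is a description of the letters and not a site.
Tlr9, chr9:106222348-106222597, plus strand: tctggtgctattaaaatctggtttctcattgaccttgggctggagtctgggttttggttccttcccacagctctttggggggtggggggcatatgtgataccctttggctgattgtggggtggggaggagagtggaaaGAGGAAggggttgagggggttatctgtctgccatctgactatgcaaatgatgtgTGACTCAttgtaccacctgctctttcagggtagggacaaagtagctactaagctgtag
Tlr2, chr3:83841609-83841858, minus strand: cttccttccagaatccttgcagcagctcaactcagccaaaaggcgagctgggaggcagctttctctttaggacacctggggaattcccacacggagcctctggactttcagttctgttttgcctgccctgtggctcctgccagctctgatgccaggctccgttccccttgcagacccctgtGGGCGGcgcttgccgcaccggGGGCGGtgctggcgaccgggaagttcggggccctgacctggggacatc
Myd88, chr9:119340019-119340268, minus strand: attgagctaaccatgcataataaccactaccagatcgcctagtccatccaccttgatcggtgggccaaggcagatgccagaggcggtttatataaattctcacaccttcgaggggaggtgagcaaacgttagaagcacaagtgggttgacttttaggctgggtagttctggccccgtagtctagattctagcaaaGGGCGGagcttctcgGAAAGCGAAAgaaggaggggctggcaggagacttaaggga
The stretch of Tlr9 held 1 match each to GAGGAA and TGANTCA, that of Tlr2 held 2 GC boxes, both inside the GENCODE gene, and that of Myd88 held 1 GC box and 1 interferon element core. No match was found in the corresponding stretches of Tlr3 and Nlrp3.

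Accessible elements that stand apart from the start sites are shown for Tlr2 and Nlrp3, as the 200 bases about the usual position of maximum signal, read from the GRCm38 genome on the plus strand. Both are intergenic. The Tlr2 element lies 3.6 kb upstream of the gene and was covered by a peak in 22 of 22 libraries, and the Nlrp3 element lies 3.0 kb upstream and was covered in 20.
Tlr2 upstream element, chr3:83845255-83845454: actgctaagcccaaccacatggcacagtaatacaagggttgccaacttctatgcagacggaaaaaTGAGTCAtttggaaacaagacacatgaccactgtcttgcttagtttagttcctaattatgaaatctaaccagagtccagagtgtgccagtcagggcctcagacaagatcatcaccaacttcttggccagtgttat
Nlrp3 upstream element, chr11:59538485-59538684: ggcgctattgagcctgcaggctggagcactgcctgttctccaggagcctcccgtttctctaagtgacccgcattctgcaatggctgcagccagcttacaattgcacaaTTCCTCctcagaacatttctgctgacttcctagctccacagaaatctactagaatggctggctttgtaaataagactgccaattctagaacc
The Tlr2 element holds 1 match to TGANTCA, and the Nlrp3 element 1 match to GAGGAA on the minus strand. Of the 43314 peaks of C replicate 1, 6.93% hold TGANTCA and 18.8% GAGGAA in the same 200 bases about their maximum.

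The 8 promoters fell into different classes of signal. Promoter signal is the total coverage of the peaks that reach the window of 2000 bp on each side of the start sites, on a rank-mapped log2 scale whose floor, 14.30, stands for the weakest promoters and for those without a peak. A gene's whole peak counts, even where it merely touches the window. Tlr4, Ly96, Tlr2, Tlr3 and Myd88 were above the floor in all 22 libraries, with medians of 16.40, 15.84, 15.70, 15.25 and 17.30. Cd14 had a peak in 22 libraries and was above the floor in 21, with a median of 15.68. Tlr9 was above the floor in 11 libraries and Nlrp3 in 4. In these bulk libraries, fewer cells of a type and less accessible DNA per cell cannot be told apart.

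**Figure D1:**
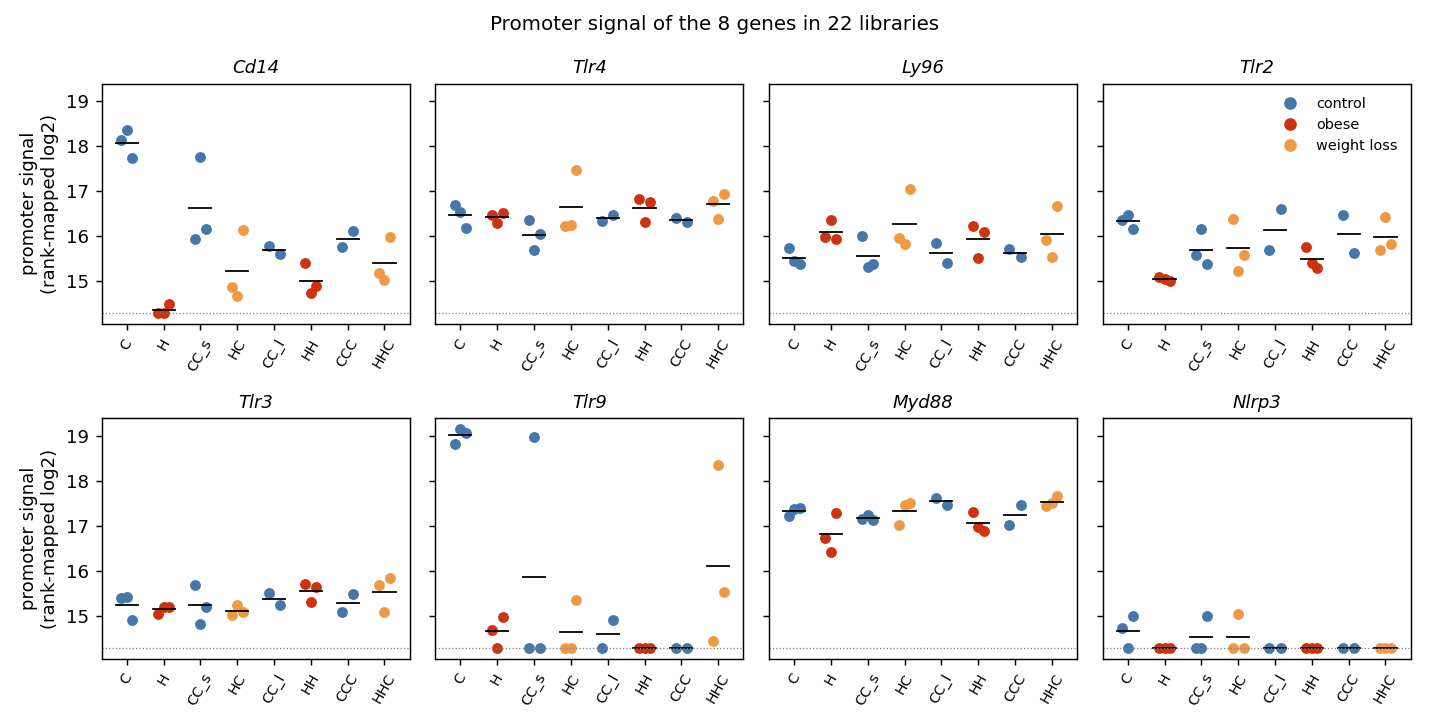
Promoter signal of the 8 genes (y axis, rank-mapped log2 total signal) in the 22 libraries by group (x axis), with 1 point per library, a bar at the group mean and a dotted line at the floor of 14.30. The C libraries of Cd14 and Tlr9 stand above the other groups, apart from 1 CC_s library for each, while Nlrp3 stays at or near the floor.

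Cd14, on the minus strand of chromosome 18 (GRCm38 36725067 to 36726798), is the co-receptor for lipopolysaccharide. Its promoter signal was 18.14, 18.36 and 17.73 in the 3 C libraries and 14.30, 14.31 and 14.51 in the 3 H libraries, a mean difference of -3.71 on the log2 scale. The groups do not overlap, and this is the contrast for which the gene was chosen, so no test is given. CC_s replicate 2 (17.76) lay within the range of the C libraries, and the other CC_s libraries were at 15.95 and 16.15.

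The C values come from peaks that are not centred on Cd14. In C replicates 1, 2 and 3, 1 peak ran over the Cd14 start and on to 11.9, 23.1 and 19.2 kb upstream, with its maximum 8.2 kb upstream, beside the start site of the neighbour Tmco6, which lies 8.3 kb away. Between 14.7% and 28.8% of these peaks lay in the Cd14 window. In the other 19 libraries the peak over Cd14 was separate and had its own maximum between 0.3 and 1.0 kb inside the gene. In the 3 H libraries this separate peak was 1.7 to 1.9 kb wide, with a total signal of 19207 to 22178 and a maximum of 26 to 30, and the Tmco6 peak stood apart.

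When peaks were counted for Cd14 where their maximum lay inside the window, no C library had one, and the difference between H and C became 0.16. It was 0.17 when peaks shared with another promoter were left out. It was -1.69 when each peak's signal was multiplied by the share of its length inside the window. Counting by maxima and leaving out shared peaks both drop the C peaks and leave the 3 C libraries at the floor, so that H could not be lower in them.

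**Figure D2:**
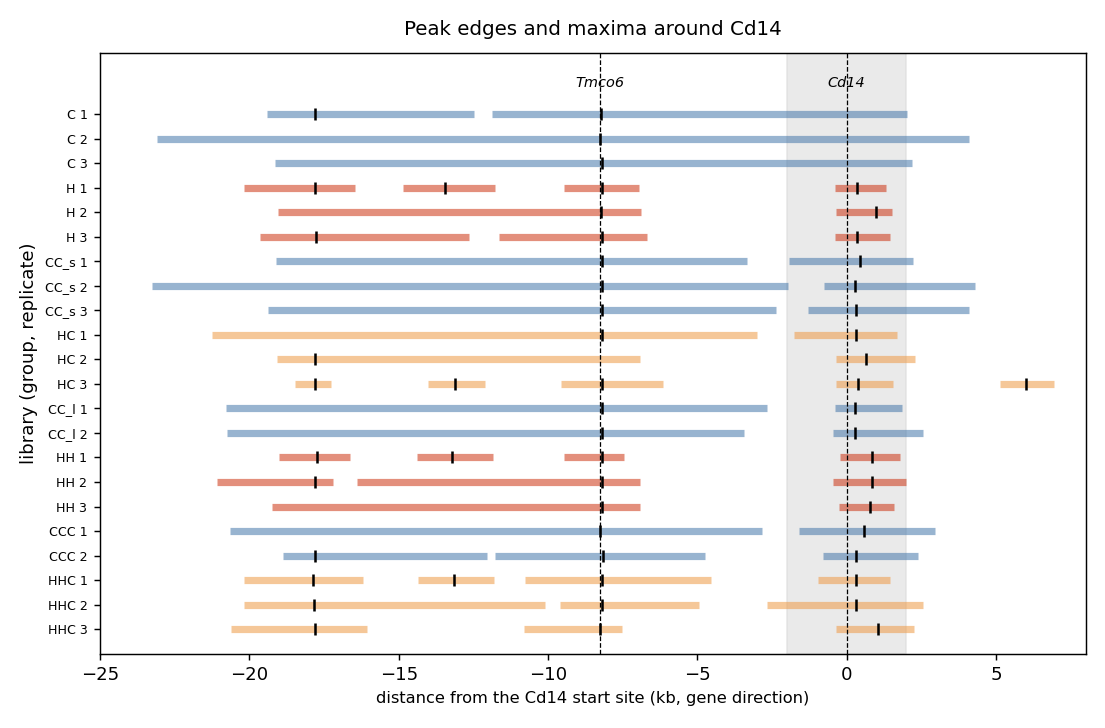
Peaks around Cd14 in each of the 22 libraries (y axis) against distance from its start site in kb in the direction of the gene (x axis), with bars from edge to edge, ticks at the position of maximum signal, the promoter window in grey and the Tmco6 start as a dashed line. Controls are blue, obese red and weight loss orange. In the 3 C libraries 1 peak covers both start sites, and in the other 19 the Cd14 peak is separate.

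The other pairs of groups were not used to choose Cd14. After short-term weight loss, the Cd14 signal was 14.88, 14.67 and 16.13 in HC and 15.95, 17.76 and 16.15 in CC_s. HC replicate 3 lay inside the range of CC_s and the other HC libraries lay beneath it. The difference was -1.39 ± 0.58 (SE, n = 3 and 3; limma, unadjusted p = 0.0453, adjusted p = 0.77), and -0.82 without CC_s replicate 2. After long-term high-fat diet, the signal was 15.40, 14.75 and 14.89 in HH and 15.79 and 15.60 in CC_l, with every HH library lower than both controls, as in 12.2% of all promoters. The difference was -0.68 ± 0.26 (SE, n = 3 and 2; limma, unadjusted p = 0.0429, adjusted p = 0.654). After long-term weight loss, it was 15.18, 15.03 and 15.98 in HHC and 15.76 and 16.11 in CCC, where the groups overlap. The difference was -0.54 ± 0.37 (SE, n = 3 and 2; limma, unadjusted p = 0.199, adjusted p = 0.92). None of the 3 passed a call rule.

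Taking the weight loss groups of both durations in 1 fit, Cd14 was lower than in controls by -0.97 ± 0.32 (SE, n = 6 and 5; limma, unadjusted p = 0.00791, adjusted p = 0.204), just short of the limit of 1. None of the 8 genes was called in that fit (limma), in which 2.08% of promoters were called and 3 of the 8 had an unadjusted p under 0.05, beside 15.2% of all promoters. Without HC 3 and HHC 3, a setting chosen after seeing the data, the Cd14 difference was -1.34 (unadjusted p = 0.000387), which passes the unadjusted rule. These libraries hold the highest Cd14 signal of HC and of HHC, so that leaving them out had to make the difference more negative. With peaks counted by their maximum it was -0.76 (unadjusted p = 0.00213). In these 3 pairs Cd14 had a peak with its own maximum in every library. In CC_s replicate 2 a wide Tmco6 peak also reached 56 bp into the window, and without that library the difference was -0.68 (unadjusted p = 0.0206). The difference between the long and the short weight loss contrasts was 0.85 ± 0.64 (SE; limma, unadjusted p = 0.201, adjusted p = 1.0), which does not show them to be alike.

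Tlr9, the endosomal receptor for DNA, lies on the plus strand of chromosome 9 (GRCm38 106222598 to 106226883) between Twf2 and Alas1, the rate-limiting enzyme of heme synthesis. Its promoter signal was 18.82, 19.14 and 19.06 in C and 14.70, 14.30 and 14.98 in H, a mean difference of -4.35, again without a test because it chose the gene. Of the other libraries, CC_s replicate 2 (18.97) and HHC replicate 2 (18.35) were near the C level, and the rest were between the floor and 15.53. HH and CCC were at the floor in all libraries.

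The high values of Tlr9 come from a neighbour as well. In 5 libraries, the 3 of C, CC_s replicate 2 and HHC replicate 2, the edge of a peak 25.0 to 36.1 kb wide reached the Tlr9 window, with its maximum 13.6 to 15.1 kb downstream, in an intron of Alas1. Between 1.5% and 12.7% of these peaks lay in the window. In C replicate 3 and CC_s replicate 2 a wide peak over Twf2 reached the window too, and in C replicate 2 a separate peak of 3.2 kb on that side, with its maximum 3.4 kb upstream, reached 371 bp into it. In H replicates 1 and 3 and CC_l replicate 2 the signal came from a narrow peak with its maximum 3.7 to 3.9 kb downstream. A peak with its maximum inside the Tlr9 window was found in 3 libraries, HC replicate 3, HHC replicate 1 and HHC replicate 3, with a maximum of 15, 17 and 18. In 21 of 22 libraries a peak also covered a position 3.7 kb downstream of the start, in an exon of Tlr9.

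Tlr9 was at 14.45, 18.35 and 15.53 in HHC and at the floor in both CCC libraries. It passed the filter on low values through HHC alone, so no test is given. Tlr9 was not tested in HC against CC_s or HH against CC_l because too few libraries were above the floor.

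**Figure D3:**
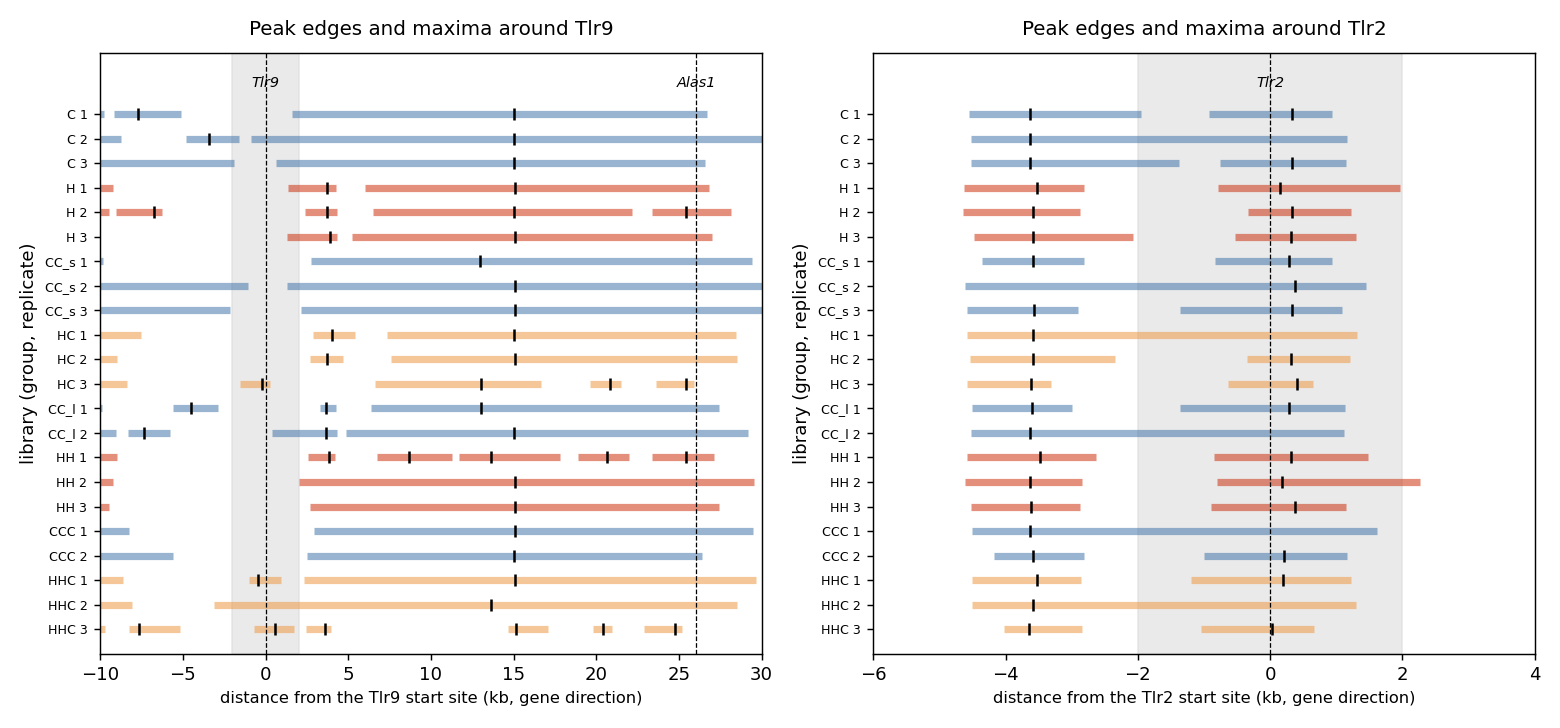
Peaks around Tlr9 (left) and Tlr2 (right) in each of the 22 libraries (y axis) against distance from the start site in kb in the direction of the gene (x axis), with bars from edge to edge, ticks at the position of maximum signal, the promoter window in grey and the Alas1 start as a dashed line. Controls are blue, obese red and weight loss orange. The wide peak over the Alas1 intron reaches the Tlr9 window in 5 libraries, and in 6 libraries 1 peak joins the Tlr2 start with the element 3.6 kb upstream.

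Tlr2, the receptor for bacterial lipoproteins, lies on the minus strand of chromosome 3 (GRCm38 83836272 to 83841767). Its promoter signal was 16.36, 16.48 and 16.15 in C and 15.09, 15.06 and 15.01 in H, and every H library was lower than every C library. Tlr2 fell by 1.28 on the log2 scale (SE 0.15, n = 3 and 3; limma, unadjusted p = 8.22e-05, adjusted p = 0.0178), and it was the 1 gene called among the 5 tested that were not chosen on this contrast. Across all promoters, 4.04% were called in this pair by the unadjusted rule (1.96% lower) and 2.04% by the adjusted rule (1% lower), and a lower signal without overlap was found in 11.1%.

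The call for Tlr2 was lost under other ways of counting peaks, and the cause was not tested. In C replicate 1 the peak of the upstream element, with its maximum 3.6 kb upstream, reached 45 bp into the window, and in C replicate 3 it reached 624 bp. In C replicate 2 it was joined to the peak at the start. In the 3 H libraries it ended outside the window. The difference was -0.53 with a window of 500 bp (unadjusted p = 0.198) and -0.89 with an overlap of 200 bp (unadjusted p = 0.033), and neither is a call. It was -0.71 with the maximum signal (unadjusted p = 0.01), -0.52 with the 20000 strongest peaks (unadjusted p = 0.0582) and -0.51 with prorated signal (unadjusted p = 0.0226). Counting by maxima gave 0.13, but it drops the joined peak of C replicate 2, whose maximum is at the element, and so puts that library at the floor by construction. On the scale of regions, the merged region over the start and the upstream element (chr3:83839501-83846410) differed in H by -0.37 ± 0.17 (SE; limma, unadjusted p = 0.0583, adjusted p = 0.158), which is no call.

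In the other pairs Tlr2 passed no rule. It was 15.77, 15.40 and 15.30 in HH against 15.69 and 16.60 in CC_l, a difference of -0.66 ± 0.33 (SE; limma, unadjusted p = 0.0988, adjusted p = 0.742) that was -1.11 without CC_l replicate 1 and -0.20 without CC_l replicate 2. HC (16.39, 15.22 and 15.58) and CC_s (15.58, 16.16 and 15.38) overlapped, as did HHC (15.70, 16.43 and 15.83) and CCC (16.47 and 15.63). In each of the 6 groups with a library in which the start and the upstream element shared a peak, that library was the highest of its group.

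Tlr4, the signalling receptor for lipopolysaccharide, spans GRCm38 66827584 to 66930284 on the plus strand of chromosome 4, and Ly96, its partner, spans 16688051 to 16709611 on the plus strand of chromosome 1. Both had a separate peak at the start in 22 of 22 libraries with its maximum inside the window. Tlr4 was 16.69, 16.54 and 16.19 in C and 16.48, 16.29 and 16.51 in H, a difference of -0.05 ± 0.18 (SE, n = 3 and 3; limma, unadjusted p = 0.794, adjusted p = 0.902). Ly96 was 15.73, 15.46 and 15.39 in C and 15.98, 16.35 and 15.93 in H, so that the groups do not overlap. A higher signal without overlap was found in 17.5% of promoters, and the difference of Ly96, 0.56 ± 0.18 (SE; limma, unadjusted p = 0.02, adjusted p = 0.161), is no call.

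The mean of Ly96 and that of Tlr4 was above the control in each of the other 3 pairs without passing a rule. For Ly96 the differences were 0.71 in HC, 0.31 in HH and 0.41 in HHC, and for Tlr4 they were 0.61, 0.22 and 0.34 (limma, unadjusted p of 0.108 or more in each). In the fit over both weight loss groups they were 0.56 ± 0.25 for Ly96 and 0.47 ± 0.22 for Tlr4 (SE, n = 6 and 5; limma, unadjusted p = 0.0381 and 0.043, adjusted p = 0.309 and 0.318), and leaving out 1 library moved them between 0.37 and 0.69 and between 0.27 and 0.58, lowest without HC replicate 3. HC replicate 3 was the highest of all 22 libraries for both genes, at 17.05 and 17.46. This library is among the 2 of lowest peak contrast, holds the most macrophage markers and is among those with more endothelial and stromal markers. Without it the differences in HC were 0.33 for Ly96 and 0.20 for Tlr4. Over all left-out libraries Ly96 ranged from 0.33 to 0.94 in HC, 0.09 to 0.53 in HH and 0.09 to 0.67 in HHC, and Tlr4 from 0.20 to 0.82, 0.13 to 0.38 and 0.22 to 0.50.

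Inside Tlr4, 9 accessible elements were found in introns between 15.8 and 96.2 kb from the start. The element at 24.6 kb was covered in 21 of 22 libraries. The one at 53.4 kb was covered in 0 of 3 C and 3 of 3 H libraries, which holds for 1 of the 41 elements of the 8 loci and for 2.72% of 81731 elements defined alike over the genome. The elements named for such a contrast were chosen after their values were seen. It was covered in 2 of 3 CC_s, 3 of 3 HC, 1 of 2 CC_l and 2 of 3 HH libraries, and in 0 of 5 libraries of CCC and HHC together. The merged region from 80.8 to 98.0 kb (chr4:66908369-66925579) had a signal, on the scale of regions with a floor of 14.01, of 16.17, 15.10 and 16.04 in C and 16.81, 17.19 and 16.62 in H. Every H library was higher than every C library, as in 19.4% of the regions tested, and the region rose by 1.11 ± 0.30 (SE, n = 3 and 3; limma, unadjusted p = 0.00597, adjusted p = 0.0416). It was the 1 region called among 14 tested at the 6 loci other than Cd14 and Tlr9, and 8.52% of all regions were called in this pair. The call was lost when any of 5 of the 6 libraries was left out (0.77 to 1.24, unadjusted p of 0.0107 to 0.0343), and with the maximum signal in place of the total the difference was -0.04 (unadjusted p = 0.843).

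Tlr3, which reads double-stranded RNA, lies on the minus strand of chromosome 8 (GRCm38 45395665 to 45411080). Its peak at the start was separate in all 22 libraries, and its promoter signal had the smallest spread of the members with signal in all libraries, from 14.82 to 15.84. The difference was -0.11 ± 0.18 in H, -0.11 ± 0.27 in HC, 0.18 ± 0.22 in HH and 0.25 ± 0.33 in HHC (SE; limma, unadjusted p of 0.446 or more). An intronic element 10.1 kb into the gene had a peak in all 3 H libraries but in just 1 of C, as had 2 of the 41 elements of the 8 loci and 2.62% of those over the genome.

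Myd88, the shared adaptor, lies on the minus strand of chromosome 9 (GRCm38 119335934 to 119341411) and starts 1253 bp from Acaa1a, which encodes a peroxisomal thiolase. The peak over its start covered the Acaa1a promoter in 22 of 22 libraries, and the usual maximum was 1112 bp from the Myd88 start and 141 bp from that of Acaa1a, so that the signal of these genes cannot be told apart. It was 17.23, 17.38 and 17.39 in C and 16.74, 16.43 and 17.28 in H, with H replicate 3 inside the range of C. The difference was -0.51 ± 0.24 (SE, n = 3 and 3; limma, unadjusted p = 0.076, adjusted p = 0.289). In HH (17.31, 16.97 and 16.88) every library was lower than in CC_l (17.62 and 17.47), which 12.2% of promoters show, with a difference of -0.49 ± 0.26 (SE, n = 3 and 2; limma, unadjusted p = 0.114, adjusted p = 0.759).

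Over both durations of obesity, Myd88 was lower by -0.50 ± 0.17 (SE, n = 6 and 5; limma, unadjusted p = 0.00758, adjusted p = 0.131) and Tlr2 by -0.97 ± 0.24 (unadjusted p = 0.000952, adjusted p = 0.0452). Neither reached the limit of 1, and 2.72% of promoters were called in that fit by the unadjusted rule. After weight loss the Myd88 difference was 0.16 ± 0.30 in HC and 0.29 ± 0.32 in HHC (SE; limma, unadjusted p = 0.607 and 0.408). An intronic element of Slc22a14 that lies 9.7 kb from the Myd88 start was covered in 3 of 3 C and 0 of 3 H libraries, and in 3 of 3 CC_s, 2 of 3 HC, 2 of 2 CC_l, 1 of 3 HH, 2 of 2 CCC and 1 of 3 HHC libraries. Of the 41 elements it was the 1 covered in every C and no H library, as were 2.83% over the genome. The merged region over Myd88 and its neighbours (chr9:119318365-119359575) was lower in H by -0.61 ± 0.15 (SE; limma, unadjusted p = 0.00323, adjusted p = 0.0299), short of the limit of 1.

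Nlrp3, on the plus strand of chromosome 11 (GRCm38 59541568 to 59566956), had no peak with its maximum in the promoter window in any library. In 4 libraries, C replicates 1 and 3, CC_s replicate 3 and HC replicate 2, the edge of the element 3.0 kb upstream reached the window, and the signal was between 14.73 and 15.04. None of the 4 diet pairs could be tested for this promoter. The upstream element was covered in 3 of 3 libraries of C, H, CC_s and HC, in 2 of 2 of CC_l and CCC and in 2 of 3 of HH and HHC.

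**Figure D4:**
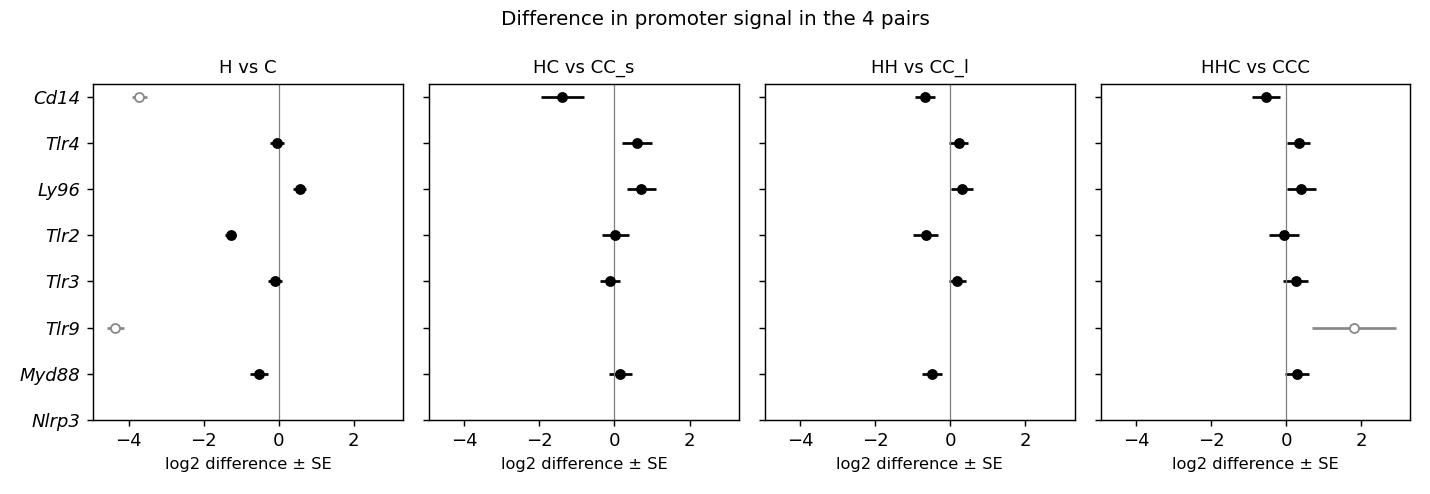
Difference in promoter signal (x axis, log2, first group minus second, with its SE) for each gene (y axis) in the 4 pairs. Open grey points are Cd14 and Tlr9 in H against C, which chose these genes, and Tlr9 in HHC against CCC, which passed the filter through HHC alone, and these are not tested. Genes without a point were not tested. Tlr2 in H, at -1.28, is the 1 called point, and Cd14 is below 0 in the other 3 pairs.

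Over the 4 pairs, then, the number of genes called by the unadjusted rule was 1 of 5 tested in H (Cd14 and Tlr9 aside), 0 of 6 in HC, 0 of 6 in HH and, Tlr9 aside, 0 of 6 in HHC (limma). The shares of all promoters called were 4.04%, 1.37%, 1.8% and 0.866%. At an unadjusted p under 0.05 the 3 counts of 0 became 1, 1 and 0, beside 6.06%, 7.4% and 4.25% of all promoters. Among the regions of the loci, 0 of 15 were called in HC, 0 of 16 in HH and 0 of 14 in HHC (limma). Of all regions, 2.54%, 2.68% and 0.706% were called. In HC 2 and in HH 3 had an unadjusted p under 0.05, beside 12% and 13.7% of all regions. Of the 14 in HHC, 1 region upstream of Nlrp3 was above the floor in 2 of 2 CCC and 0 of 3 HHC libraries. It passed the filter on low values through CCC alone, so no test is given for it. None of the other HHC regions had an unadjusted p under 0.05, beside 6.14% of all regions. The region that holds the Cd14 start and 5 neighbours (chr18:36722505-36773780) was lower in HC by -0.38 ± 0.16 and in HH by -0.47 ± 0.13 (SE; limma, unadjusted p = 0.0433 and 0.0108, adjusted p = 0.4 and 0.217). The next region that was tested (chr18:36655216-36716654) begins 10.1 kb downstream of the Cd14 start and holds neither its promoter nor the gene. It was lower by -0.72 ± 0.19 and -0.63 ± 0.14 in the same pairs (SE; limma, unadjusted p = 0.00467 and 0.00312, adjusted p = 0.192 and 0.171).

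The control groups of each duration differ in age and in the last chow product, which cannot be told apart. Between CC_s and C, 0 of 6 genes were called (limma), and 0.492% of promoters were. Nlrp3 was included, and Cd14 and Tlr9 were set aside because C chose them. Tlr2 differed by -0.62 ± 0.25 (SE; limma, unadjusted p = 0.0408, adjusted p = 0.942) and was the 1 gene of these with an unadjusted p under 0.05, beside 3.86% of promoters. Between CCC and CC_l, 0 of 6 genes were called (limma; Cd14 included, Tlr9 and Nlrp3 not tested), beside 1.2% of promoters. At an unadjusted p under 0.05 the count was 0 as well, beside 7.78% of promoters.

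The rest of the pathway was read from lists. Those of other Toll-like receptors and co-receptors, of adaptors and kinases, of inhibitors and of inflammasome genes hold 60 genes, of which 37, 36, 41 and 42 were tested in H, HC, HH and HHC. By the unadjusted rule 1 rose and 0 fell in H, and none was called in the other pairs (limma), beside 4.04%, 1.37%, 1.8% and 0.866% of all promoters called in either direction. In the 4 pairs 8, 3, 4 and 4 had an unadjusted p under 0.05, beside 21.2%, 6.06%, 7.4% and 4.25% of all promoters. The gene that rose was Pycard, the adaptor protein (ASC) that joins Nlrp3 to caspase-1. It was 15.71, 15.94 and 15.50 in C and 17.34, 17.46 and 16.99 in H, a difference of 1.55 ± 0.20 (SE, n = 3 and 3; limma, unadjusted p = 0.000172, adjusted p = 0.024), with 2.08% of promoters called higher. The difference was 0.51 with the maximum signal (unadjusted p = 0.0096) and -1.13 when shared peaks were left out (unadjusted p = 0.0535), neither a call, and the last setting drops the peaks of H replicates 2 and 3 and puts them at the floor by construction. The call was also lost with the joint fit per duration (1.55, unadjusted p = 0.0191), prorated signal (1.03, unadjusted p = 0.0112), a window of 500 bp (1.17, unadjusted p = 0.0315) and maxima inside the window (1.05, unadjusted p = 0.0483). In HH it was 15.28, 16.65 and 16.72 against 16.04 and 15.84 in CC_l, where the groups overlap. The promoters of Tlr1, Tlr11, Tlr12 and Tlr13 were at the floor in all 22 libraries, and that of Tlr5, the flagellin receptor, was above it in all 22.

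In H, median differences were 0.03 over 6 other receptors, 0.15 over 16 adaptors and kinases, 0.08 over 9 inhibitors and 0.21 over 6 inflammasome genes, beside 0.03 over all promoters tested. In the 4 pairs all 16 adipocyte markers were tested. By the unadjusted rule Fabp4 was called higher in H and HC, Pparg lower in HC and Cfd lower in HH (limma). Of all promoters, 4.04%, 1.37% and 1.8% were called in H, HC and HH. Pparg was also called lower over both weight loss groups (2.08% of promoters called) and Cfd in CCC against CC_l (1.2%). Col3a1 of stromal cells, 1 of 8 tested, was called lower over both obese groups (2.72%). Wt1 of mesothelium and Cd79a of B cells passed the filter on low values only through the group in which they were high, so no test is given for them. Of the 16 macrophage markers, 5 or 6 were tested in each pair and none of these was called (limma).

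The genes whose promoter signal followed that of Cd14 most closely over the 22 libraries were Gm11037, Elof1 and Rnf144a (Pearson r of 0.916, 0.899 and 0.848, over 12444 genes compared). For Tlr9 they were Gm11037, Pigc and Cd14 (0.812, 0.777 and 0.769). These values are a description. Peak width and contrast differ between the libraries, and the C libraries together with CC_s replicate 2 hold the highest values of Cd14 and Tlr9. The part of these in the correlations was not tested.

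The share of a locus that peaks cover was measured as well. Of the Cd14 locus, peaks covered on average 72.4% in C and 45.6% in H, 72.4% in CC_s and 51.1% in HC, 63.95% in CC_l and 45.3% in HH, and 67.45% in CCC and 48.5% in HHC, where the libraries ran from 23.5% to 66.9%. Controls had more of the locus under peaks than the matched obese or weight loss group in all 4 pairs at 2 of the 6 loci other than Cd14 and Tlr9 (Tlr2 and Myd88), beside 26.8% of all loci. The Cd14 and Tlr9 loci show the same order, but their cover in C comes with the wide peaks that chose these genes. At Tlr4, Ly96, Tlr3 and Nlrp3 the mean cover was larger in H than in C. In any library, 78.4% to 94.5% of the genes with a promoter peak had its maximum inside the window. Counted over libraries for a single gene, which is another measure, this held in 3 of 11 libraries with a peak for Tlr9 and 0 of 4 for Nlrp3.

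**Figure D5:**
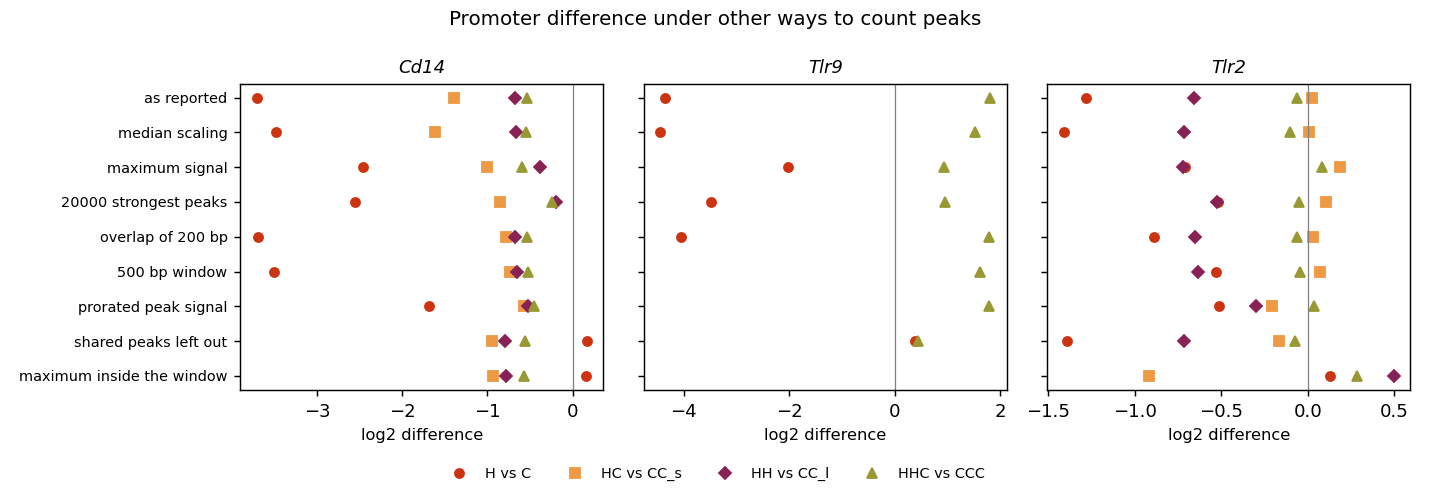
Difference in promoter signal (x axis, log2, first group minus second) of Cd14, Tlr9 and Tlr2 in the 4 pairs, by the way peaks were counted (y axis); red circles are H against C, orange squares HC against CC_s, purple diamonds HH against CC_l and olive triangles HHC against CCC, and a missing point could not be tested. For Cd14, H against C is -3.71 as reported and 0.16 by maxima inside the window, where C is at the floor by construction, while the other 3 pairs stay below 0 throughout.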

How the data were processed

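The 22 deposited peak lists, 1 per library, each from the epididymal adipocyte nuclei of 1 mouse, were analysed. Per the labels and the study's methods, the authors trimmed reads (Trim Galore 0.6.6), aligned them to GRCm38 (Bowtie2 2.4.4) and called peaks per library with SEACR 1.3 in stringent mode at a threshold of 0.01. Each peak has a deposited total signal (coverage summed over its bases), a maximum signal and the position of that maximum. No normalization is stated. The study gives a minimum read depth for its samples, and the depth of each library is not given in the sources used here.

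A promoter reached 2000 bp to either side of the GENCODE vM21 start sites, for 21911 protein-coding genes. A promoter took the whole total signal of each peak overlapping it by 1 bp or more, also where most of the peak lay outside. A locus was the gene span with 20 kb on each side, and its regions were peaks merged over all libraries. Each library was rank-mapped: its 12422 strongest promoters were given, rank by rank, the log2 total signal averaged over the 22 libraries, and all others got the lowest of these values, the floor. Pairs of groups of the same age were compared with limma 3.58.1 (R 4.3.3, lmFit and eBayes with trend). So were the control groups CC_s and C, and CCC and CC_l, which differ in age and in the last chow product. A fit took all promoters, or all regions, whose libraries above the floor were no fewer than the size of the smallest group compared, with Benjamini-Hochberg adjustment. Fits over both durations, and those of long minus short, took all groups in 1 model. Their spread between animals was therefore estimated from all 22 libraries. A call needed an absolute log2 difference above 1 with an unadjusted p under 0.01, or, as a stricter rule, an adjusted p under 0.05. The fit was tested on simulated data. Python 3.11.15, numpy 2.4.6 and pandas 2.3.3 did the rest.

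The genes, gene lists and tests were chosen with earlier results of these data known. Cd14 and Tlr9 were picked for a lower promoter signal in H, so their H and C values carry no test. Besides the 8 genes, genes named are the one with the smallest p per list, pair and direction if called, 3 genes of like pattern for each of Cd14 and Tlr9, and neighbours under the same peak. Marker genes that this rule names are given without values. Alternatives were a stricter list, a larger overlap, the maximum signal, median scaling, no filter, no trend, a joint fit per duration, a replicate block, leaving out each replicate, prorated signal, a window of 500 bp, shared peaks left out and loci without extension. Counting peaks with their maximum inside the window, and leaving out HC 3 with HHC 3, were alternatives chosen after seeing the data.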

Additional observations from a re-analysis of the deposited data

How the results depend on the processing

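The call of Tlr2 in H against C, 1 gene, became 0 with the 20000 strongest peaks, an overlap of 200 bp, the maximum signal, prorated signal, a window of 500 bp or maxima inside the window. For both durations of obesity Cd14 and Tlr9 were set aside, because H and C, which chose them, enter that fit. The count of 0 among the other genes became 1 (Tlr2) with median scaling or shared peaks left out. It ran from 0 to 1 over the fits that left out a replicate (1 without C 3, CC_l 1 or HH 1). For both durations of weight loss, with all 8 genes included, the count of 0 became 1 (Cd14) without HC 3 and HHC 3, which hold the highest Cd14 values of their groups. Over the fits that left out a replicate it ran from 0 to 1 (1 without CC_s 1, CC_s 3, HC 3 or HHC 3). The count of 1 region in H became 0 with no filter, the joint fit per duration, median scaling or the 20000 strongest peaks, ran from 0 to 1 over left-out replicates (0 without C 2, C 3 or any H library), and the 0 regions of HHC became 1 with the maximum signal. For these results the cause was not tested. Below 0 in every setting run, Cd14 ranged from -1.84 to -0.575 in HC, -0.875 to -0.191 in HH and -0.83 to -0.245 in HHC.

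Single values changed sign as follows, all in log2. With the maximum signal, Tlr4 was 0.156 and Tlr3 0.28 in H, Tlr3 0.124 in HC, Tlr4 -0.181, Tlr2 0.0831 and Myd88 -0.133 in HHC, Tlr4 -0.00944, Tlr2 0.134 and Myd88 -0.0538 over both weight loss groups, and the Tlr4 intronic region -0.0391 in H. With maxima inside the window, which puts all C libraries of Cd14 and, of Tlr2, 1 library each of C, HC, CC_l, HHC and CCC at the floor by construction, Cd14 was 0.155 and Tlr2 0.128 in H, Tlr2 -0.92 and Myd88 -0.0361 in HC, Tlr2 0.499 in HH and 0.285 in HHC, Tlr2 0.314 and Tlr3 -0.0378 over both obese groups, and Tlr3 -0.0829 over weight loss. With shared peaks left out, Cd14 was 0.166, Tlr9 0.379 and Pycard -1.13 in H (by construction, C was at the floor for Cd14 and at or near it for Tlr9, and H 2 and H 3 at it for Pycard), Tlr2 -0.169 in HC, Tlr3 -0.0574 over obesity, and Tlr3 -0.0774 and Nlrp3 -0.0362 over weight loss. With prorated signal, Myd88 was 0.162 in H, Tlr2 -0.207 in HC, Tlr4 -0.124, Tlr2 0.0363 and Myd88 -0.448 in HHC, and Tlr4 -0.0561, Tlr3 -0.0285 and Myd88 0.0453 over obesity. With median scaling, Myd88 was -0.19 in HC, and Tlr4 -0.0137 and Tlr3 -0.00986 over obesity. Over weight loss, Tlr2 was 0.0262 and Tlr9 -0.0971 with the 20000 strongest peaks, and Tlr2 0.0134 with a window of 500 bp and 0.0568 without HC 3 and HHC 3. Leaving out a replicate moved Tlr4 in H from -0.193 to 0.0577, Tlr2 in HC from -0.304 to 0.278, Tlr3 in HC from -0.32 to 0.109, Tlr2 in HHC from -0.484 to 0.362 and Tlr3 over obesity from -0.0445 to 0.104. Over weight loss it moved Tlr2 from -0.23 to 0.193, Tlr3 from -0.033 to 0.185, Tlr9 from -0.259 to 1.08 and Nlrp3 from -0.052 to 0.0682.

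It is not stated whether same-numbered libraries share more than a number. Their deviations did not correlate in every pair. In H against C 2 of 6 libraries, and in HC against CC_s 0 of 6, correlated best with their own number. Groups of 2 or 3 libraries are too small to show whether same-numbered libraries were handled together. With the replicate block, 28 promoters passed the adjusted rule in H against C in place of 259, Tlr2 was 0.0159 in HHC and 0.0245 over weight loss, and Nlrp3 -0.0163. The block changed no count by the unadjusted rule for the 8 genes, but in H the promoters of Tlr2 and Pycard (adjusted p = 0.104 and 0.0824) and the Tlr4 intronic region (adjusted p = 0.0574) no longer passed the adjusted rule (limma). Tlr9 in H gave no value with a window of 500 bp, prorated signal or maxima inside the window. Of the other single values, 705 kept their direction and, where a rule was applied, their side of it. Cd14 and Tlr9 in H and over both obese groups carry no rule here and count when they moved by less than the spread between replicates. The depth of each library is unknown, and groups of 2 or 3 limit what the pairs can show.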
